A study of Homo sapiens with 7 samples.

Results

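The miR-424, miR-503, miR-542 and miR-450 hairpins form a cluster on the X chromosome, and their microRNAs were measured in 7 cell lines, 3 of the oligometastatic group L1-R2 and 4 of the polymetastatic group L1Mic-R2. Every assay named miR-424, miR-503, miR-542, miR-450a or miR-450b, whichever arm it reads, was taken as a member. This gave 7 of the 377 human microRNA assays of the card: miR-424, miR-503, miR-542-3p, miR-542-5p, miR-450a, miR-450b-3p and miR-450b-5p. The cluster was selected on its Ct values in these lines, with the difference between the groups known, and its members were then chosen by name. Their levels and differences are therefore a description and are not offered as evidence for a difference between the groups.

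Both groups descend from MDA-MB-435-GFP, an established human tumor cell line that carries green fluorescent protein and whose ancestry, breast carcinoma or melanoma, has been disputed. By the methods of the study, tumor cells injected by the tail vein were recovered from the lung of an athymic mouse, from macrometastases for the first-round L1 line and from the macrometastasis-free tissue of the same lung for the first-round L1Mic line. The L1-R2 lines 3T, 4T and 8T were then grown from lungs of oligometastatic mice injected with the former, and 2T, 3T, 7T and 8T of L1Mic-R2 from lungs of polymetastatic mice injected with the latter, each from a distinct mouse and each purified with the antibiotic G418. All 7 lines thus share the parental line, the recovery from lung and the drug selection, and each group goes back to a single first-round line. The age of the mice is not given in the sources used here.

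One TaqMan card was run per line, and the spread within a group includes the error of single wells as well as differences between the lines. Each well gives a threshold cycle (Ct), the PCR cycle when its fluorescence passes 0.3. Ct is a log2 measure and is lower the more RNA there is. A well that never crosses is Undetermined and stands at 40 in the files. A Ct was given for 171 to 197 of the 377 microRNAs per card, and for 140 of them on all 7 cards. Of the control RNAs, U6 ranged from 15.97 to 16.77 over the lines, RNU44 from 23.67 to 25.97 and RNU48 from 18.81 to 20.97, and the lowest Ct of each was in L1-R2 4T. By the card numbers in the deposited data, L1-R2 was on cards 1 to 3 and L1Mic-R2 on cards 4 to 7. What these numbers stand for is not stated, and card number and group cannot be told apart. Among marker microRNAs, the melanocytic miR-204 was at a Ct of 25.79 to 26.92 in the 7 lines, while miR-211 was Undetermined in L1Mic-R2 2T and 8T and at 27.50 to 33.33 in the other lines. Of the 7 epithelial markers, miR-200b was at 32.57 to 36.76 and miR-200c at 30.10 to 35.46 in all 7 lines. A Ct was given for miR-200a in 5 lines, miR-429 in 4, miR-203 in 2 and miR-141 in 1, and miR-205 had none.

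A microRNA is cut as a short strand from an RNA hairpin and guides the silencing complex to messenger RNAs that pair with its seed, bases 2 to 8. Hairpins that lie close together are often cut from 1 long transcript, and those of miR-424 and miR-503 are known to be transcribed together with the long noncoding RNA MIR503HG. miR-424 and miR-503 belong to the extended miR-16 family, which represses cell cycle genes such as CCND1, CCNE1 and CDC25A, and both are known to be induced by TGF-beta and during involution of the mammary gland. miR-424 is also known from monocyte differentiation and from endothelial cells in hypoxia. miR-542-3p is known to target BIRC5, which encodes survivin, and miR-450b-5p to target PAX6.

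In the RefSeq table on GRCh38.p14, the 6 hairpins of the cluster lie on the minus strand of chromosome X within 6527 bp. MIR424 and MIR503 are 215 bp apart. MIR503 lies inside MIR503HG (chrX:134543377-134546630), and MIR424 shares 17 bases with it. MIR542 follows 4890 bp downstream of MIR503. MIR450A2 lies 733 bp beyond MIR542, MIR450A1 76 bp further on, and MIR450B 78 bp after that. The assay for miR-450a reads a mature sequence that both MIR450A1 and MIR450A2 encode, so that their products cannot be told apart.

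**Figure D1:**
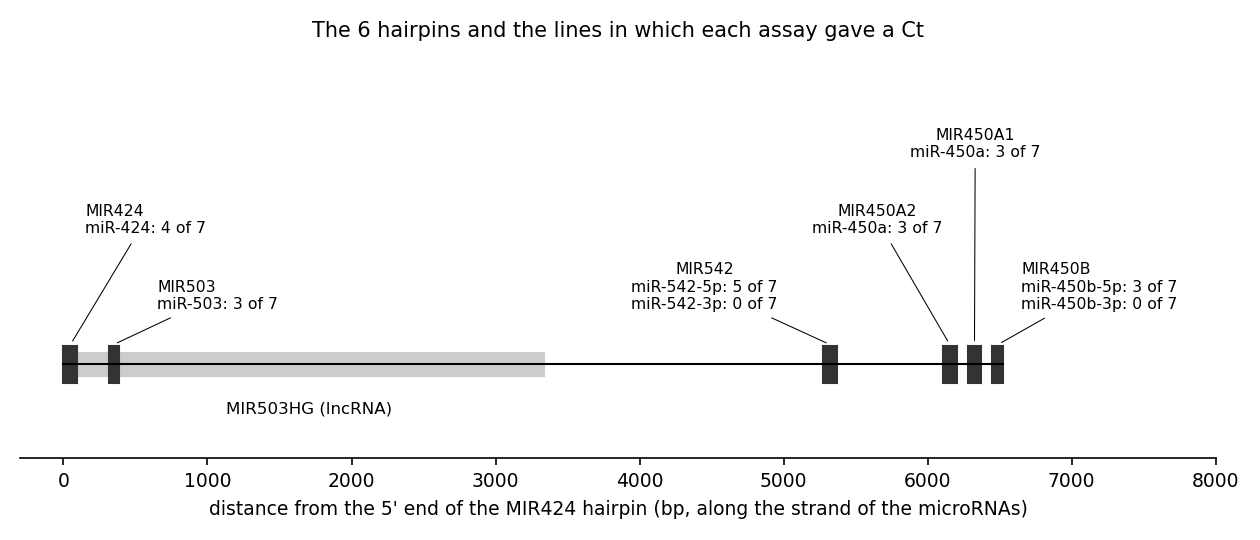
The 6 hairpins (dark boxes) and the long noncoding RNA MIR503HG (grey box) to scale, along the horizontal axis in bp from the 5′ end of MIR424. The label of each hairpin gives the number of the 7 lines in which its assay had a Ct, from 0 of 7 for miR-542-3p and miR-450b-3p to 5 of 7 for miR-542-5p.

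RefSeq sequences were matched for 6 of the 7 assays, and these are shown so that the seeds can be compared. They are written 5′ to 3′ with the seed in capitals, followed by miR-16 as the reference of its family.
miR-424 (chrX:134546680-134546701, minus strand): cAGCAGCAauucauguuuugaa
miR-503 (chrX:134546371-134546393, minus strand): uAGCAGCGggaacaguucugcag
miR-542-5p (chrX:134541400-134541422, minus strand): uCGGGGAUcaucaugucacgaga
miR-450a (chrX:134540393-134540414 and chrX:134540564-134540585, minus strand): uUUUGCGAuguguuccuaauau
miR-450b-5p (chrX:134540231-134540252, minus strand): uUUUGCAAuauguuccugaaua
miR-450b-3p (chrX:134540194-134540215, minus strand): uUGGGAUCauuuugcauccaua
miR-16 (chr3:160404754-160404775, plus strand, and chr13:50049027-50049048, minus strand): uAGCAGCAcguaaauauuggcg

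The 6 sequences carry 6 different seeds. Positions are counted from 1 at the 5′ end, and the base of the first-named microRNA comes first. Between miR-424 and miR-503 the seed differs only by A8G. Between miR-450a and miR-450b-5p, whose hairpins are neighbors, it differs only by G7A, and the whole sequences by 6 substitutions. The seed of miR-424 is identical to that of miR-16. It was found in 7 of the 2370 human mature sequences of the table, whereas the seeds of miR-503, miR-542-5p, miR-450a and miR-450b-5p were each found in 1, their own. The seed of miR-450b-3p was found in 2, the other being miR-769-3p.

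All members with any signal were near the end of the amplification. Of the 49 wells (7 assays in 7 lines), 18 had a Ct and 31 were Undetermined. The earliest Ct was 34.18, the median of the 18 was 35.89 and the latest was 39.54. A Ct below 38, the limit used here for detection, was seen in 14 wells, 4 lay between 38 and 40, and 1 was below 35. For comparison, the mean Ct over the lines had a median of 29.41 among the 140 microRNAs with a Ct on every card. No member had a Ct in all 7 lines, 5 had one in some lines, and miR-542-3p and miR-450b-3p had none. Of the 377 microRNAs, 99 (26.3%) had a Ct in some lines only.

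**Figure D2:**
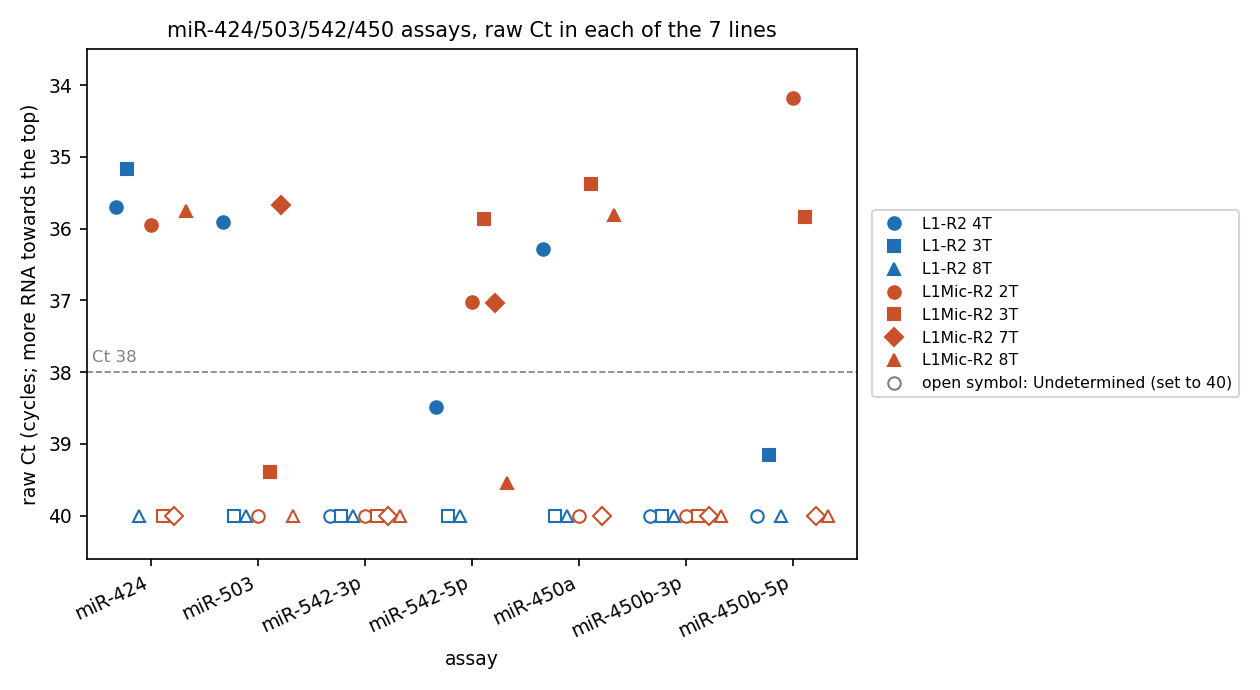
Raw Ct (vertical axis, cycles, inverted so that more RNA is towards the top) of the 7 assays in each line, with L1-R2 in blue and L1Mic-R2 in orange. Filled symbols are wells with a Ct, open symbols are Undetermined wells drawn at 40, and the dashed line marks a Ct of 38. The 18 filled symbols lie between 34.18 and 39.54.

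miR-424, the member with the seed of miR-16, had a Ct in 4 lines. In L1-R2 it was 35.70 in 4T and 35.18 in 3T and Undetermined in 8T, and in L1Mic-R2 it was 35.94 in 2T and 35.76 in 8T and Undetermined in 3T and 7T. The 4 wells with a Ct thus lay close together, from 35.18 to 35.94, and both groups held lines with and without a signal.

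miR-503, encoded next to miR-424, had a Ct in 3 lines. It was 35.91 in L1-R2 4T, 35.67 in L1Mic-R2 7T and 39.39 in L1Mic-R2 3T, and Undetermined in L1-R2 3T and 8T and in L1Mic-R2 2T and 8T. The groups overlapped, with an early Ct in 1 line of each. Although the hairpins lie side by side, miR-424 and miR-503 had a Ct together in 1 line, L1-R2 4T, while 5 lines had a Ct for only one of them and 1 line, L1-R2 8T, for neither.

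The arms of the miR-542 hairpin differed in detection. miR-542-3p was Undetermined in all 7 lines. miR-542-5p had a Ct in 5 lines, more than any other member. It was 38.49 in L1-R2 4T and Undetermined in L1-R2 3T and 8T. In L1Mic-R2 it was 37.02 in 2T, 35.86 in 3T, 37.04 in 7T and 39.54 in 8T. All 4 L1Mic-R2 lines and 1 of the 3 L1-R2 lines thus had a Ct, and L1Mic-R2 8T lay later than L1-R2 4T, so that the raw values of the groups overlapped. Assays differ in efficiency, and since the 3p assay gave no Ct, the difference between the arms has no size here.

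The miR-450 assays also gave an arm without a signal. miR-450b-3p was Undetermined in all 7 lines. miR-450b-5p, from the same hairpin, had a Ct of 34.18 in L1Mic-R2 2T, the earliest of any member, 35.84 in L1Mic-R2 3T and 39.16 in L1-R2 3T, and was Undetermined in the remaining 4 lines. Its 2 early wells were both in L1Mic-R2, while the other 2 lines of that group had none. miR-450a had a Ct of 36.28 in L1-R2 4T, 35.38 in L1Mic-R2 3T and 35.81 in L1Mic-R2 8T, and was Undetermined in L1-R2 3T and 8T and in L1Mic-R2 2T and 7T. The groups overlapped for both. miR-450a and miR-450b-5p, whose seeds differ by 1 base, had a Ct together only in L1Mic-R2 3T, one of them alone had it in 4 lines, and neither in 2.

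Read by line, L1-R2 4T had a Ct for 4 members (miR-424, miR-503, miR-542-5p and miR-450a), L1-R2 3T for 2 (miR-424 and miR-450b-5p) and L1-R2 8T for 0. In L1Mic-R2, line 2T had a Ct for 3 members (miR-424, miR-542-5p and miR-450b-5p), 3T for 4 (miR-503, miR-542-5p, miR-450a and miR-450b-5p), 7T for 2 (miR-503 and miR-542-5p) and 8T for 3 (miR-424, miR-542-5p and miR-450a). The ranges of the groups overlapped. Both L1-R2 8T, with no member, and L1-R2 4T, with 4, were in the L1-R2 group, and their cards gave a Ct for 191 and 197 microRNAs, so that the numbers over all microRNAs were close. Over the groups, 6 of 21 member wells (28.6%) in L1-R2 and 12 of 28 (42.9%) in L1Mic-R2 had a Ct, against 50.4% and 46.8% of all microRNA wells. Each line in which miR-503 or miR-450a had a Ct, 3 for each, was also a line with a Ct for miR-542-5p, which had one in 5 of the 7 lines. Over all pairs of members with any Ct, between 2 and 5 of the 7 lines had a Ct for both or for neither.

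Such patchy detection was also seen outside the cluster at this level. The earliest Ct of each of the 5 members with any Ct lay between 34.18 and 35.86. Another 29 microRNAs had their earliest Ct in this range. Of these, 5 had a Ct in all 7 lines and 14 in 3 to 5 lines, and the median was 5 lines. None of the microRNAs outside the cluster had a Ct in exactly the same set of lines as one of these 5 members. How often the same holds for other microRNAs with a Ct in some lines only was not counted, so this does not set the members apart.

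The same wells also have a value read here as the fluorescence at the end of the run. It was recognized by lying above 0.3 in wells with a Ct and below 0.3 in Undetermined wells. Its separation of these wells was therefore given in advance and is no independent check of detection. It ranged from 0.336 to 1.28 over baseline in the 18 member wells with a Ct. The lowest of these, 0.336, was miR-542-5p in L1Mic-R2 8T, the well with the latest Ct. In the 31 Undetermined wells it ranged from -0.060 to 0.206, with a median of 0.0405. The highest, 0.206, was miR-450b-5p in L1Mic-R2 8T, and the next was the same assay in L1Mic-R2 7T with 0.0986. All 14 wells of miR-542-3p and miR-450b-3p were at 0.0955 or below. The value of 0.206 ranked 8 among the 206 Undetermined microRNAs of its card.

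The comparison of polymetastatic with oligometastatic lines was then described on quantile-normalized Ct, which gives each card the same distribution, as the methods of the study did. Means, SDs and SEs that include Undetermined wells rest on the value of 40. For miR-542-5p this holds for L1-R2 3T and 8T. The small SD of its L1-R2 lines, and the SE that uses it, therefore do not measure the spread between lines. For miR-542-5p the mean normalized Ct was 39.90 ± 0.18 (SD, n = 3) for the L1-R2 lines. It was 37.02 ± 1.0 (SD, n = 4) for the L1Mic-R2 lines, a difference of 2.88 (SE 0.55) towards more RNA in L1Mic-R2 on the log2 scale. miR-450b-5p was at 39.72 ± 0.48 (SD, n = 3) and 37.46 ± 3.02 (SD, n = 4), a difference of 2.27. miR-450a was at 39.09 ± 1.58 (SD, n = 3) and 37.58 ± 2.80 (SD, n = 4), a difference of 1.51 (SE 1.65). For miR-424 the means were 37.21 ± 2.42 (SD, n = 3) and 37.70 ± 2.68 (SD, n = 4), a difference of -0.49 (SE 1.78), and for miR-503 they were 38.71 ± 2.24 (SD, n = 3) and 38.68 ± 1.89 (SD, n = 4), a difference of 0.02. Apart from miR-542-5p, each difference was within the SD of the L1Mic-R2 lines and depended on single lines. Leaving out 1 line at a time, the difference ranged from 1.09 (without L1Mic-R2 2T) to 3.19 (without L1Mic-R2 8T) for miR-450b-5p and from 0.61 (without L1Mic-R2 8T) to 2.39 (without L1-R2 4T) for miR-450a. It ranged from -1.92 (without L1-R2 8T) to 0.29 (without L1Mic-R2 7T) for miR-424 and from -0.86 (without L1Mic-R2 7T) to 1.24 (without L1-R2 4T) for miR-503.

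A microRNA entered the limma fit with a Ct below 38 in at least 3 lines, which 3 of the 7 members had: miR-424, miR-542-5p and miR-450a. miR-503 and miR-450b-5p reached it in 2 lines each and were not tested. At an adjusted p under 0.05, 1 of the 3, miR-542-5p, was called, higher in L1Mic-R2. Over all 181 microRNAs tested, 9 (4.97%) were called, 6 of them (3.31%) higher in L1Mic-R2, and the median difference was 0.06. The normalized Ct of the groups did not overlap for 1 of the 3 members, again miR-542-5p, and for 35 of the 181 microRNAs (19.3%). miR-542-5p met the limit of 38 in 3 L1Mic-R2 and 0 L1-R2 lines, so that it entered the fit only through the group in which it was higher. For this reason too, and since the members were selected with this contrast known, nothing is read from these counts.

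**Figure D3:**
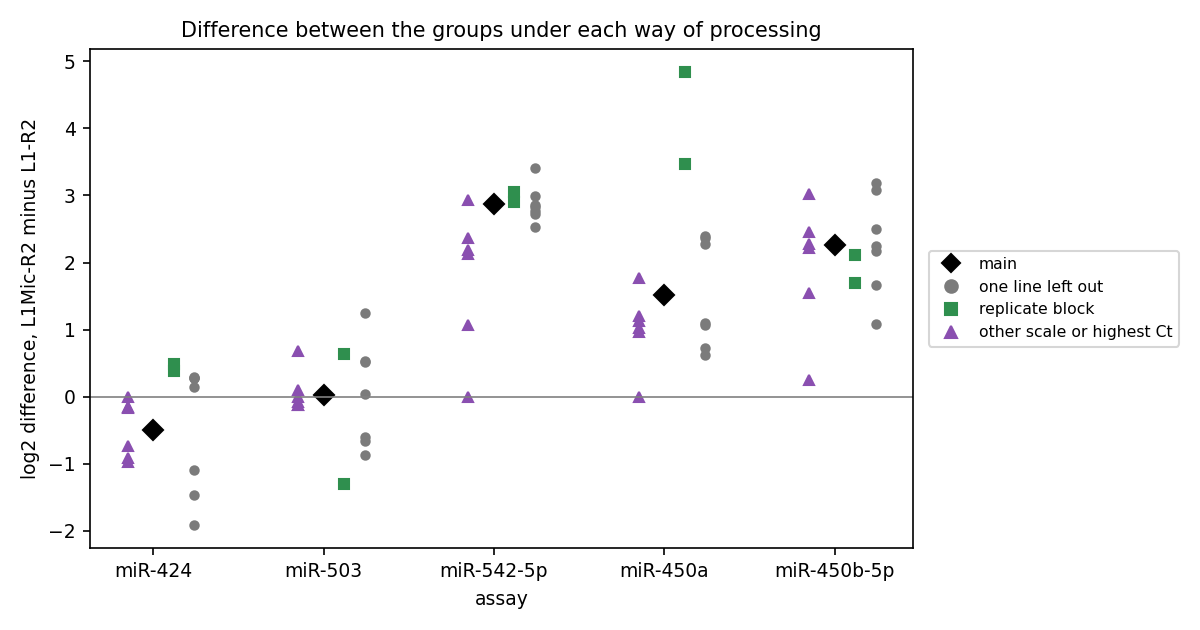
Difference between L1Mic-R2 and L1-R2 (vertical axis, log2 scale, positive for more RNA in L1Mic-R2) of the 5 members with any Ct. The black diamond is the quantile-normalized value. The other symbols are the values under another scale or highest Ct, with a replicate block, or with 1 line left out. Each is a difference in group means, except with a replicate block. There it is the fitted difference, which rests only on lines whose number occurs in both groups. miR-542-5p, miR-450a and miR-450b-5p stay at or above 0, whereas miR-424 and miR-503 fall on both sides of it.

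The groups overlapped in raw Ct of miR-542-5p and were apart after quantile normalization, as they were after scaling to RNU44 and RNU48, but not after scaling to U6. L1-R2 4T moved from a raw Ct of 38.49 to 39.69, and L1Mic-R2 8T from 39.54 to 38.04, which reversed the order of these lines. The other L1Mic-R2 lines moved less, to 36.57 in 2T, 35.85 in 3T and 37.63 in 7T. On raw Ct the means were 39.50 ± 0.87 (SD, n = 3) and 37.37 ± 1.55 (SD, n = 4), a difference of 2.13 that was not called. Of 15 alternatives that tested miR-542-5p, 1 called it, the fit without L1Mic-R2 8T (3.41), and 1, a highest Ct of 35, could not, since it set all 7 wells to the same value. Without L1Mic-R2 2T, 3T or 7T it had a Ct below 38 in 2 lines only and did not enter the test, and without any one of the L1-R2 lines it was not called.

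**Figure D4:**
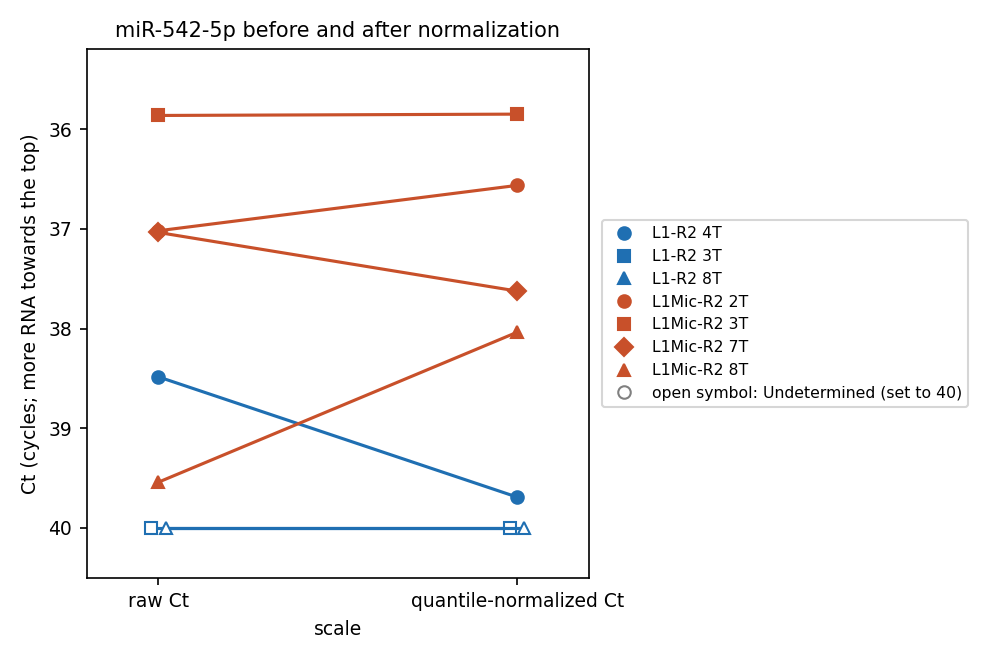
Ct of miR-542-5p in each of the 7 lines (vertical axis, cycles, inverted) on the raw scale, left, and after quantile normalization, right, with a line joining the values of each cell line. L1-R2 4T falls from 38.49 to 39.69 and L1Mic-R2 8T rises from 39.54 to 38.04, so that the lines cross. Open symbols are Undetermined wells at 40.

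The microRNAs related to miR-424 and miR-503 by seed gave earlier Ct values for the most part. Of 6 listed relatives, 4 had an assay on the card, all with the seed of miR-424. miR-16 was at a Ct of 20.74 to 21.68 in the 7 lines, miR-195 at 27.30 to 28.63 and miR-15b at 27.83 to 28.61. miR-15a, encoded beside a copy of miR-16, was from 36.11 to Undetermined, with a Ct in 6 lines. Levels of different assays depend on their efficiency and are set side by side only. The median difference of the 4 between the groups was -0.07 and 0 of 4 were called, against 4.97% of all microRNAs tested. miR-15b, which did not pass the test, had the smallest adjusted p of the 4 (difference 0.84, SE 0.22, limma adjusted p = 0.0819). On the raw scale miR-15b was at 28.61, 28.27 and 28.40 in L1-R2 4T, 3T and 8T. It was at 27.86, 27.83, 28.03 and 27.87 in L1Mic-R2 2T, 3T, 7T and 8T, without overlap, as was the case for 20.4% of all microRNAs tested on raw Ct.

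**Figure D5:**
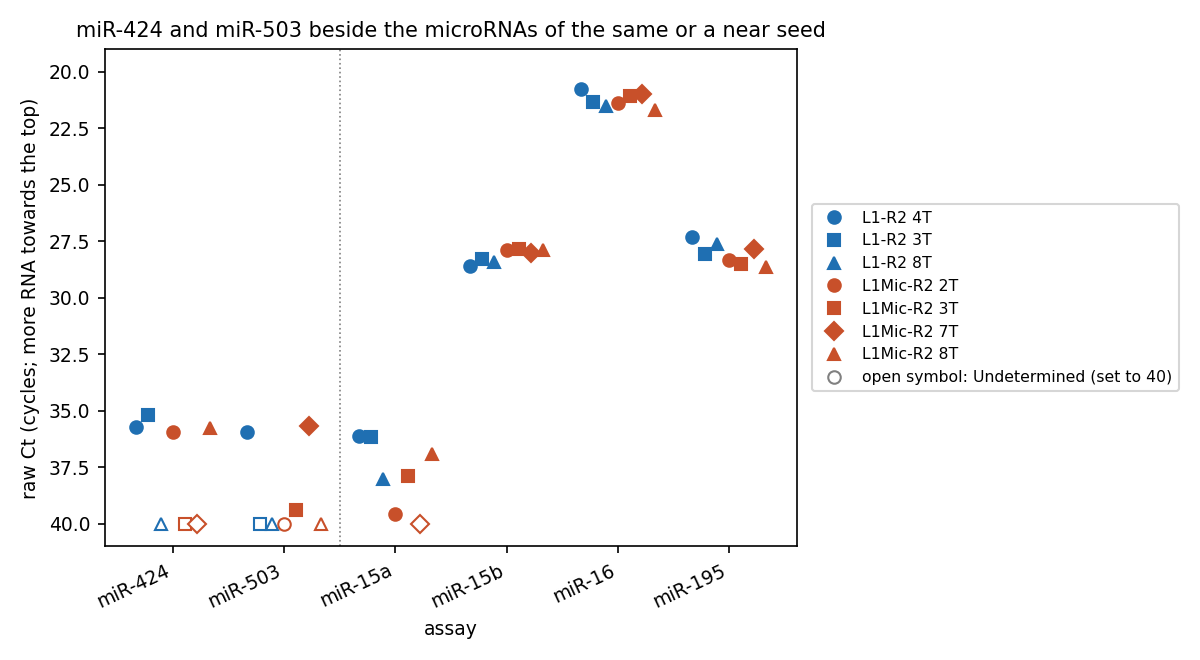
Raw Ct (vertical axis, cycles, inverted) of miR-424 and miR-503, left of the dotted line, and of the 4 microRNAs with the seed of miR-424, right of it, in each of the 7 lines. Open symbols are Undetermined wells at 40. miR-16 lies at 20.74 to 21.68, while miR-424, miR-503 and miR-15a lie at 35.18 or later.

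The nearest other microRNA cluster on the same chromosome, miR-106a-363, lies 369906 bp away and was used as a list for comparison. Its 6 assays (miR-106a, miR-18b, miR-20b, miR-19b, miR-92a and miR-363) had a Ct in all 7 lines, in contrast to 0 of the 7 members of the miR-424 cluster. Copies of miR-19b and miR-92a on another chromosome give the same mature sequence. Of the 6, 5 had a higher and 1 a lower mean in L1Mic-R2, with a median difference of 0.48, and 0 of 6 were called, against 4.97% of all microRNAs tested. The largest difference of the 6, 3.86 (SE 0.83, limma adjusted p = 0.0545), was that of miR-18b and exceeded those of the miR-424 cluster. Its raw Ct was 36.26 to 38.39 in L1-R2 and 31.82 to 35.27 in L1Mic-R2, without overlap. On raw Ct, 20.4% of all microRNAs tested were likewise without overlap.

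Markers of other cell types were read from other wells of the same cards, because the lines were grown from mouse lung. By the methods of the study the tumor cells were purified with G418, and whether host RNA remained was not tested. Of 6 fibroblast microRNAs, 5 gave no Ct in any line (miR-143, miR-145, miR-199a-5p, miR-199b-5p and miR-214). The sixth, miR-199a-3p, had a Ct in 1 of 3 L1-R2 and 2 of 4 L1Mic-R2 lines, and the summed level of the list (40 minus Ct) was 0 to 4.12 in L1-R2 and 0 to 3.92 in L1Mic-R2. Of 6 blood and endothelial microRNAs, miR-451 and miR-142-5p were Undetermined in all lines. A Ct was seen in 10 of 18 wells of this list in L1-R2 and 9 of 24 in L1Mic-R2, and the summed level ranged from 12.99 to 17.26 and from 11.29 to 18.06. Its members differed in both directions. miR-126 was at a raw Ct of 32.46 to 35.06 in L1-R2 and 28.71 to 32.41 in L1Mic-R2. The groups did not overlap, as was the case for 20.4% of all microRNAs tested on raw Ct. On the normalized log2 scale miR-126 had a mean 3.44 higher in L1Mic-R2 (SE 0.98). The difference was 3.07 (SE 1.26) for miR-223, -3.35 (SE 1.31) for miR-150 and -2.38 for miR-142-3p, which was not tested. Of the 3 tested, 0 were called. Of the 7 epithelial microRNAs, 4 were tested and 0 called, with a summed level of 18.41 to 31.79 in L1-R2 and 10.44 to 26.37 in L1Mic-R2. Of 5 melanocytic microRNAs, 1 was called, miR-509-3-5p, lower in L1Mic-R2, and for these counts the share called over all microRNAs tested was 4.97%, with 1.66% called lower. The summed level of the melanocytic list was 58.78 to 63.62 in L1-R2 and 41.05 to 55.82 in L1Mic-R2, without overlap. How often summed levels of other sets do not overlap was not computed. The part of these cell types in the values of the cluster was not tested.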

How the data were processed

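Raw Ct of 381 assays was deposited for 7 cell lines, 1 card each. The authors used SDS RQ Manager and a threshold of 0.3, and the deposited average Ct is a log2 scale in cycles with Undetermined wells at 40. A deposited column without a header was treated as a score: it exceeded 0.3 in each well with a Ct and stayed below 0.3 in each Undetermined well, and is described as end fluorescence over baseline.

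Groups and line numbers followed the labels (file names exchange L1-R2 3T and 4T). The labels mention SYBR and mammary fat pad injection, and the methods of the study, which were followed, TaqMan and tail vein. Ct was quantile normalized over 7 cards and 40 minus Ct tested with limma 3.58.1 (lmFit, eBayes) in R 4.3.3, with Benjamini-Hochberg adjustment, for the 181 microRNAs with Ct below 38 in at least 3 lines. The fit was tested on simulated data with normal noise, no limit at 40 and no normalization step. That test does not cover Undetermined wells.

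Members and lists were chosen with earlier results of these data known. Named were all members, controls, seed relatives, the neighboring cluster and marker lists. The rule for the 3 microRNAs most alike could not be applied, since it needs members detected in all 7 lines. Alternatives were raw Ct, U6, RNU44 with RNU48, the mean of microRNAs detected in all lines, other Ct limits, filters and fits, a replicate block and leaving out each line.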

Additional observations from a re-analysis of the deposited data

Results flagged for a closer look

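miR-16, the reference of the seed family, was at a normalized Ct of 21.46 in L1Mic-R2 8T and 21.24 in each of the other 3 L1Mic-R2 lines. The assay had the same rank on those 3 cards, and quantile normalization gives equal ranks equal values, so that any other rank would set a line apart. On raw Ct, miR-16 was 21.68 in L1Mic-R2 8T and 20.99, 21.08 and 21.40 in the other 3. In all, 14 groups of 4 lines were examined in this way, and chance alone would flag about 0.7 of them.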

How the results depend on the processing

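The count of 14 member wells below 38 became 1 with a limit of 35 and 18 with any Ct, the latter chosen after seeing the data. The 1 member called became 0 with raw Ct, U6, RNU44 and RNU48, the mean of detected microRNAs, Ct limited to 38, no filter, limma with trend and robust settings, the methods' t-test, and a replicate block by the numbers of the labels or of the file names. It was also 0 by construction in 2 alternatives: with Ct limited to 35, all wells of miR-542-5p were equal, and with only microRNAs detected in every line, 0 members were tested. The groups of 1 member did not overlap, which became 0 with raw Ct, U6, the mean of detected microRNAs and a highest Ct of 38 or 35. The difference of miR-542-5p was 1.06 at a highest Ct of 38 and 0 at 35, and stayed between 2.53 and 3.41 with 1 line left out. With the block by labels, the fitted difference of miR-450a was 4.84, against 1.51 without a block. The fitted value rests only on the lines whose number occurs in both groups, 3T and 8T. It leaves out L1-R2 4T, the only L1-R2 line with a Ct for miR-450a. The 9 microRNAs called became 14 with only those detected in all lines and 21 with trend and robust settings. They became 0 with scaling to RNU44 and RNU48 (37 past an unadjusted 0.05), no filter (36), the methods' t-test (35) and the replicate block (19 by labels, 27 by file names, with 1 residual degree of freedom against 5). With 1 line left out, the called microRNAs ranged from 0 to 4 and the called members from 0 to 1. For same-numbered lines the correlations of deviations ranged from -0.197 to 0.019. These are too few pairs of lines to decide whether the numbers pair them. The median difference of all microRNAs was 0.06, and with U6 it was -0.19, on raw Ct -0.25, and after scaling to RNU44 and RNU48 0.56. No value could be had for the median of members detected in all 7 lines or for the difference between the arms of miR-542. The causes were not tested.

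Depth does not apply to Ct. An Undetermined well only bounds the level, and with 1 well per line and 31 of 49 member wells Undetermined, a difference between lines was not detectable below that bound.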
